A study of Mus musculus with 20 samples.

Results

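The 7 genes described here are the purinergic sensing genes P2ry12, P2ry13, P2ry6, P2rx4, P2rx7, Entpd1 and Adora3, chosen by name as genes with which microglia detect or degrade extracellular nucleotides. All 7 were found once each among the 55487 gene identifiers of the count table, and all 7 were among the 16595 genes that passed the filter on low counts. They were followed in bulk RNA sequencing of cells labelled as microglia from brain cortex and brainstem of 10 mice, with a library for each region of a mouse. The Braf allele was V600E, a constitutively active kinase, held behind a stop cassette (LSL) and, per the labels' protocols, released with Cx3cr1CreER by a single dose of 37.5 mg per kg 4-hydroxytamoxifen given to the pregnant dam at embryonic day 9.5. The same protocol is attached to the control records. Cx3cr1CreER is active in myeloid cells that express Cx3cr1, so other such cells descended from the progenitors present at that time can carry the allele too.

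The stage named end-stage had 2 control and 2 V600E mice. The controls differed from each other in genotype: mouse M1375 was labelled Braf VE; CX3 WT and mouse M1521 Braf WT; CX3 HET. The V600E mice M1376 and M1524 were Braf VE; CX3 HET. At 2 months there were 3 control mice, Braf WT; CX3 HET, and 3 V600E mice, Braf VE; CX3 HET. No age was given for the end-stage mice. At 2 months the numbers in title and description disagreed within a record for 5 of 6 animals, and count columns are named by the description. Genotype at 2 months was matched here by mouse number, from the column to whichever title has that number, which makes M2617, M2621 and M2624 the V600E mice and M2618, M2629 and M2633 the controls. Reading genotype from the record that holds the column instead changes it for 4 of the 6 mice, and each 2-month genotype result below depends on this choice. The descriptions ascended by mouse number, and the running numbers in the column names did not ascend with them. Taken by mouse number, those running numbers followed the order of the record titles for 6 of the 6 mice. The labels do not state which reading is right, and this order does not settle it by itself.

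Library totals ran from 9395203 to 21171114 counts, so that 3 counts, the most that a count of 0 allows, corresponded to 0.147 to 0.318 CPM, counts scaled to a common library total. The fewest counts of any member in any library was 1567, for Adora3. Markers of microglia were abundant, with the sum over 7 of them (Tmem119, Sall1, Csf1r, Cx3cr1, Aif1, Fcrls and Siglech) between 16401 and 34824 CPM. The region labels were not borne out by tissue transcripts. A list of 13 hindbrain genes, all Hox genes, summed to a median of 2.05 CPM in cortex-labelled and 0.69 CPM in brainstem-labelled libraries and 9 of 10 mice had the higher sum on the cortex-labelled side, while forebrain genes had medians of 0.392 and 0.429 CPM. These sums are near the level of a few counts. Libraries are therefore called cortex-labelled and brainstem-labelled throughout. Braf itself had group means of 10.8 to 22 CPM, and its total count does not check the point mutation.

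Purinergic signalling lets microglia read nucleotides that leak or are released from other cells. P2Y receptors are coupled to G proteins: P2ry12 and P2ry13 bind ADP and act through Gi, and P2ry12 guides the extension of microglial processes towards injury, whereas P2ry6 binds UDP and is linked to phagocytosis. P2X receptors are ATP-gated cation channels: P2rx4 sits largely in lysosomes and is raised in microglia after nerve injury, and P2rx7 opens at high ATP and can trigger the NLRP3 inflammasome. Entpd1 encodes CD39, which removes phosphates from extracellular ATP and ADP, and Adora3 is a receptor for adenosine. P2ry12 and P2ry13 are commonly used to mark microglia in the undisturbed brain.

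On GRCm38, P2ry12 (ENSMUSG00000036353.13, chr3:59216272-59262871, minus strand) and P2ry13 (ENSMUSG00000036362.2, chr3:59207892-59210882, minus strand) are neighbours within the span of Med12l, a gene on the opposite strand that had group means of 24.4 to 73.8 CPM. P2ry12 shares 9 exon bases with Med12l and P2ry13 shares 0. P2rx4 (ENSMUSG00000029470.15, chr5:122707544-122729738) and P2rx7 (ENSMUSG00000029468.17, chr5:122643911-122691432) are also neighbours, both on the plus strand. P2ry6 (ENSMUSG00000048779.5) lies at chr7:100937630-100974649 on the minus strand and Entpd1 (ENSMUSG00000048120.16) at chr19:40612366-40741602 on the plus strand. Adora3 (ENSMUSG00000000562.5, chr3:105870858-105908926, plus strand) shares 779 exon bases, 20.9% of its exonic length, with Tmigd3, so reads there can belong to either gene. Tmigd3 was listed at group means of 2.2 to 4.14 CPM. The sources used here do not say whether counting used strand.

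The promoters of P2ry12, P2ry13 and P2rx4, the 3 members whose genotype difference passed the test in cortex-labelled libraries at both stages, are shown because the neighbours P2ry12 and P2ry13 were both lower in V600E mice there while P2rx4 was higher. Each runs from 250 bases before to 50 bases after the RefSeq start site on GRCm38.p6, 5′ to 3′ on the gene's strand, at chr3:59262936-59263235 (minus strand) for P2ry12, chr3:59210833-59211132 (minus strand) for P2ry13 and chr5:122707294-122707593 (plus strand) for P2rx4. Capitals mark a match to any of 4 motifs searched on both strands.
P2ry12: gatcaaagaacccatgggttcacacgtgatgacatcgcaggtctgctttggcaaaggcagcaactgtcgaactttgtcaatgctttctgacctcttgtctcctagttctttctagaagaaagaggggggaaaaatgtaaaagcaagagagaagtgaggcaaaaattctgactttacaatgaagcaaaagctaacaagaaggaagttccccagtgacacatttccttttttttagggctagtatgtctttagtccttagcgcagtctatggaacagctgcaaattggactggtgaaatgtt
P2ry13: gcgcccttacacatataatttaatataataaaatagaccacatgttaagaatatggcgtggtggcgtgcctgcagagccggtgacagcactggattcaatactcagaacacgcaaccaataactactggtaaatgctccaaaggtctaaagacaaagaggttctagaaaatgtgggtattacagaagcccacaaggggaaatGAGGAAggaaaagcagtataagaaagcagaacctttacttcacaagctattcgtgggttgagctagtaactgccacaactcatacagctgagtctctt
P2rx4: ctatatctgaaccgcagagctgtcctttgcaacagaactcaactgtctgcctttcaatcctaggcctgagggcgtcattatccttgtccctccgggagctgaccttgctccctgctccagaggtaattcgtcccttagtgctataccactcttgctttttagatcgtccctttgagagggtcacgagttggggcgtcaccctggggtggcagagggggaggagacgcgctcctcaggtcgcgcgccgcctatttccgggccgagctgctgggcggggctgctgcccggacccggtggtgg
The motif GAGGAA is 1 form of the site for the myeloid factor PU.1, and 28.3% of 32851 mouse promoters of this length held it. TGANTCA for AP-1 was held by 7.81% and TATAAA by 13.6%. The IRF element (GAAA, 2 bases of any kind, GAAA) was held by 3.44%. P2ry13 held GAGGAA once, starting at position -48 from the start site, and the windows of P2ry12 and P2rx4 held none of these letters. GC content was 42.3% for P2ry12, 42.3% for P2ry13 and 60.3% for P2rx4. Of the other members, Adora3 held GAGGAA on the opposite strand at -28 and TGANTCA at -98, and both P2rx7 windows and 1 of 2 Entpd1 windows held GAGGAA. The AP-1 letters were also held by 1 of the P2rx7 windows, at -249. Promoters were found in the RefSeq table for 6 of the 7 members, all but P2ry6. A match is a run of letters and not a measured binding site, and a window without a match can hold other forms of a site.

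Per kilobase of exon, P2ry12 was the most abundant member, with a median over the 20 libraries of 2356 CPM per kb, followed by P2ry13 at 1026 and P2ry6 at 228. Entpd1 had a median of 127 CPM per kb, Adora3 40.4, P2rx7 38.1 and P2rx4 24.9. In CPM, P2ry12 also varied most, with its highest library 8.57 times its lowest, against 4.55 for P2rx4, 4.24 for P2ry13, 2.36 for Entpd1, 2.17 for Adora3, 2.15 for P2rx7 and 1.79 for P2ry6. The ADP receptors and P2rx4 thus moved over a wider range than the UDP receptor.

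**Figure D1:**
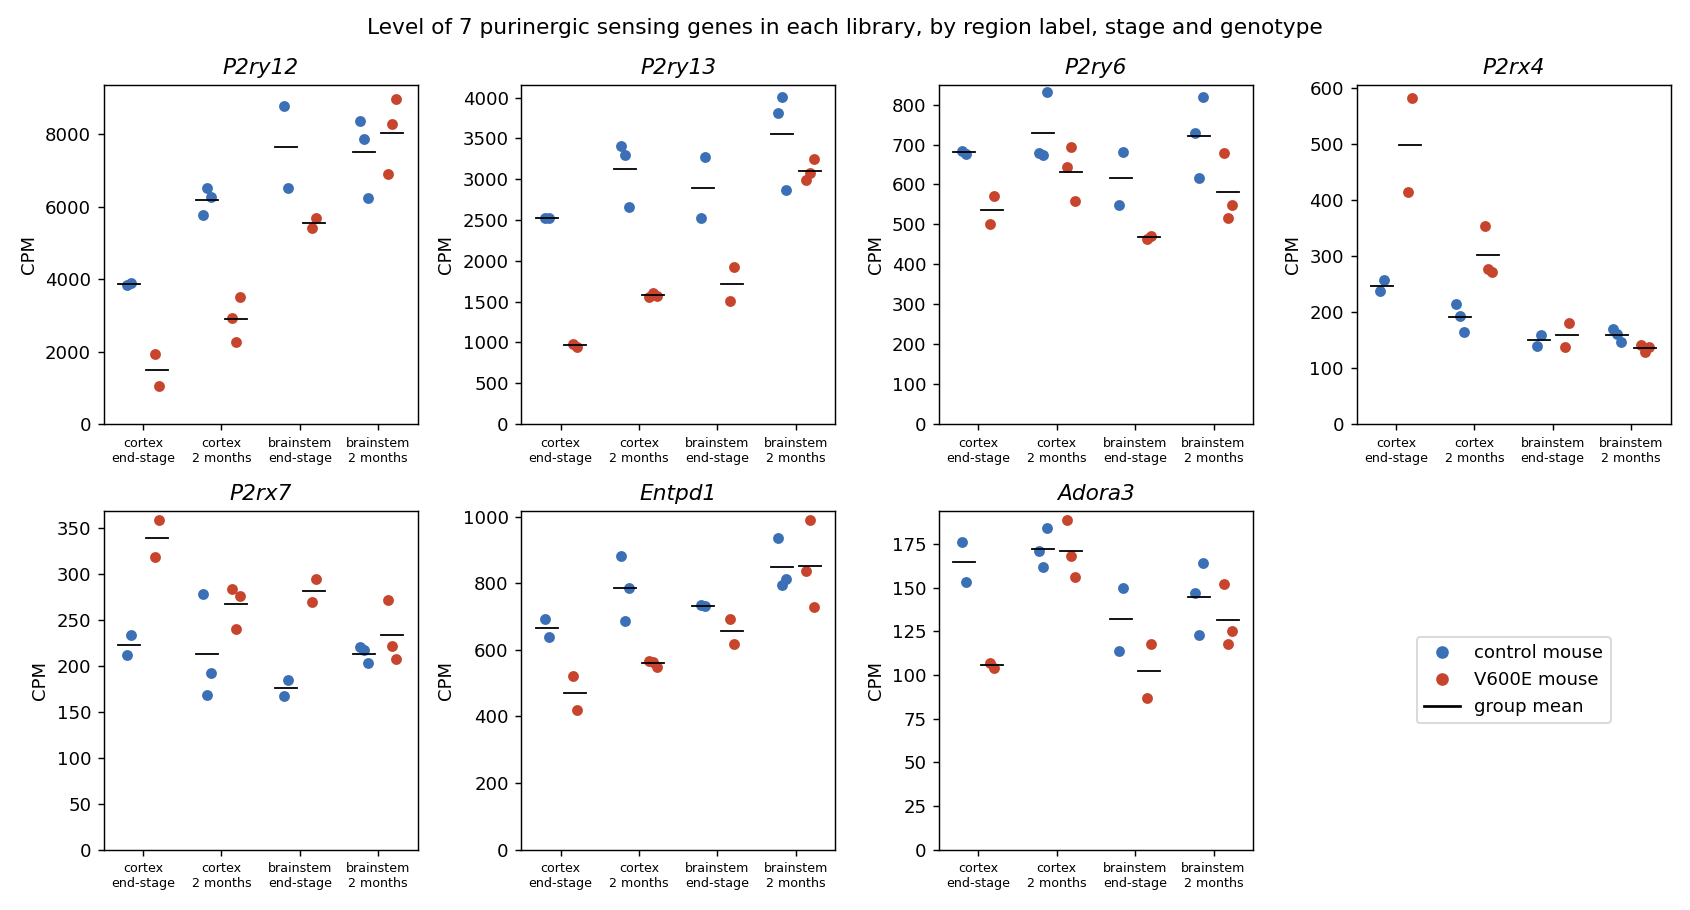
Level of each member in every library in CPM (vertical axes from 0), by region label and stage (horizontal axes); blue points are control mice, red points V600E mice and black lines group means, with 2 mice a group at end-stage and 3 at 2 months. In cortex-labelled libraries P2ry12 and P2ry13 lay lower and P2rx4 higher in every V600E mouse than in any control of the same stage, while at 2 months the brainstem-labelled values of P2ry12 overlapped.

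The first question was how V600E microglia differed from controls in the cortex-labelled end-stage libraries. P2ry12 and P2ry13 were lower and P2rx4 was higher in V600E libraries, by edgeR's quasi-likelihood test with Benjamini-Hochberg adjustment over 16595 genes. Thus 3 of the 7 members passed at an adjusted p under 0.05, where 4.01% of all genes did. The 2 lower members compare with 2.18% of all genes called lower, and the 1 higher member with 1.83% called higher. The median log2 difference of the 7 was -0.50, beside 0.02 for all genes tested. P2ry12, P2ry13 and P2rx4 differ in how their products signal, the first pair through Gi and the last as an ion channel.

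P2ry12 stood at 3843 and 3890 CPM in the controls M1375 and M1521 and at 1933 and 1046 CPM in the V600E mice M1376 and M1524. The groups did not overlap, and the V600E mice were further from each other than the controls were. The V600E level was 2.6-fold lower, a log2 difference of -1.38 ± 0.25 (SE; 2 and 2 mice; edgeR adjusted p = 0.00448). P2ry13 was at 2529 and 2524 CPM in the controls and 982 and 943 CPM in the V600E mice. Its groups were tight and well apart, with a 2.63-fold lower level (log2 difference -1.39 ± 0.18, edgeR adjusted p = 0.000269). P2rx4, the lysosomal ATP channel, was at 237 and 256 CPM in the controls and 414 and 582 CPM in the V600E mice. Here the V600E libraries lay higher in both mice, by 2.02-fold (log2 difference 1.01 ± 0.19, edgeR adjusted p = 0.00649). The cortex-labelled library of mouse M1524 had both the lowest P2ry12 and the highest P2rx4 of all 20 libraries. Without this mouse the log2 difference was -1.01 (edgeR adjusted p = 0.074) for P2ry12 and 0.74 (0.0927) for P2rx4, and -1.37 (0.00623) for P2ry13, the 1 member still called, where 1.46% of all genes were called. Without the control M1375, which was labelled CX3 WT, P2ry12 (edgeR adjusted p = 0.0329) and P2ry13 (0.00366) passed and P2rx4 did not (0.94, adjusted p = 0.113), where 0.997% of all genes passed. A fit with the 4 compared libraries alone gave edgeR adjusted p of 0.0596 for P2ry12 and 0.0557 for P2rx4 and called 1 of the 7, where 3.25% of all genes passed. In the cortex-labelled library of M1524 marker sums of monocytes (947 CPM), border-associated macrophages (278 CPM), oligodendrocyte precursors (88.1 CPM) and astrocytes (31.5 CPM) were also above those of M1376 (141, 58.6, 37.3 and 6.87 CPM). The microglia sum was higher in M1524 too (23314 against 16401 CPM), while the sums of neurons (1.43 against 3.27 CPM) and platelets (3.9 against 11 CPM) were lower. The part of these cells in the member values was not tested.

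The other members did not pass there. P2rx7, the channel linked to the inflammasome, was at 212 and 234 CPM in the controls and 318 and 359 CPM in the V600E mice. Its log2 difference was 0.60 ± 0.20 (edgeR adjusted p = 0.112). Adora3, the adenosine receptor, was at 176 and 153 CPM against 107 and 104 CPM (-0.64 ± 0.19, edgeR adjusted p = 0.078). Entpd1, the ectonucleotidase CD39, was at 693 and 639 CPM against 521 and 419 CPM (-0.50 ± 0.17, edgeR adjusted p = 0.11). P2ry6, the UDP receptor, was at 684 and 677 CPM against 501 and 571 CPM (-0.34 ± 0.18, edgeR adjusted p = 0.336). DESeq2 called P2rx7 and Adora3 as well, at adjusted p of 0.0493 and 0.0319, which made 5 of the 7 members where 7.91% of all genes were called.

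The balance among the members shifted with these levels. As a share of the summed CPM per kb of the 7 genes, P2ry12 was 50.8% ± 0.381 (SD, n = 2) in cortex-labelled end-stage controls and 41.1% ± 10.9 (SD, n = 2) in V600E mice. The V600E pair was split, with 48.8% in M1376 and 33.5% in M1524. P2rx4 made up 1.17% ± 0.064 in the controls and 5.27% ± 2.09 in the V600E mice (SD, n = 2 each). At 2 months its share was 0.651% ± 0.0812 and 1.95% ± 0.326 (SD, n = 3 each). These shares were not tested.

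At 2 months, by the mouse number, cortex-labelled V600E libraries again had lower P2ry12 and P2ry13 and higher P2rx4, and Entpd1 was also lower. That made 4 of the 7 members, where 5.45% of all genes passed, with 3 members lower against 1.81% of all genes and 1 higher against 3.64%. The median log2 difference of the 7 was -0.20, beside -0.01 for all genes. P2ry12 was at 5764, 6508 and 6273 CPM in the controls M2618, M2629 and M2633 and at 2915, 2260 and 3491 CPM in the V600E mice M2617, M2621 and M2624. The highest V600E value was well under the lowest control value, a 2.14-fold lower level (log2 difference -1.10 ± 0.20, edgeR adjusted p = 0.00391). P2ry13 was at 3409, 3297 and 2660 CPM in the controls and at 1558, 1601 and 1569 CPM in the V600E mice. The V600E values were close together and lower by 1.98-fold (log2 difference -0.99 ± 0.14, edgeR adjusted p = 0.00111).

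P2rx4 was at 214, 193 and 165 CPM in the controls and 354, 277 and 272 CPM in the V600E mice. Each V600E mouse was above each control, by 1.58-fold between the groups (log2 difference 0.66 ± 0.16, edgeR adjusted p = 0.0184). Entpd1 was at 883, 687 and 786 CPM in the controls and 566, 564 and 547 CPM in the V600E mice. Its groups were also apart, with a 1.4-fold lower level (log2 difference -0.49 ± 0.14, edgeR adjusted p = 0.0428). These calls for P2rx4 and Entpd1 were lost without M2617 (edgeR adjusted p = 0.12 and 0.107) or without M2633 (0.119 and 0.118), and P2rx4 was also lost without M2629 (0.0717). All genes passed at 3.82% without M2617 and at 2.8% without M2633, with 2 of the 7 members called in each. Entpd1 was also lost without M2618 (edgeR adjusted p = 0.144), M2621 (0.0763) or M2624 (0.108), and without the low-count filter (0.0606), where 3 of the 7 members and 4.64% of all genes were called. A fit with the 6 compared libraries alone called 2 of the 7 members and 6.22% of all genes, with edgeR adjusted p of 0.0505 for P2rx4 and 0.0807 for Entpd1. P2ry12 and P2ry13 passed without any 1 of the 6 mice. P2ry6 (log2 difference -0.20), P2rx7 (0.33) and Adora3 (-0.01) did not pass, at edgeR adjusted p of 0.497, 0.283 and 0.984. P2rx7 in the control M2618, at 278 CPM, was above the V600E mice M2621 and M2624, and without M2618 its difference was 0.56 (edgeR adjusted p = 0.0499).

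**Figure D2:**
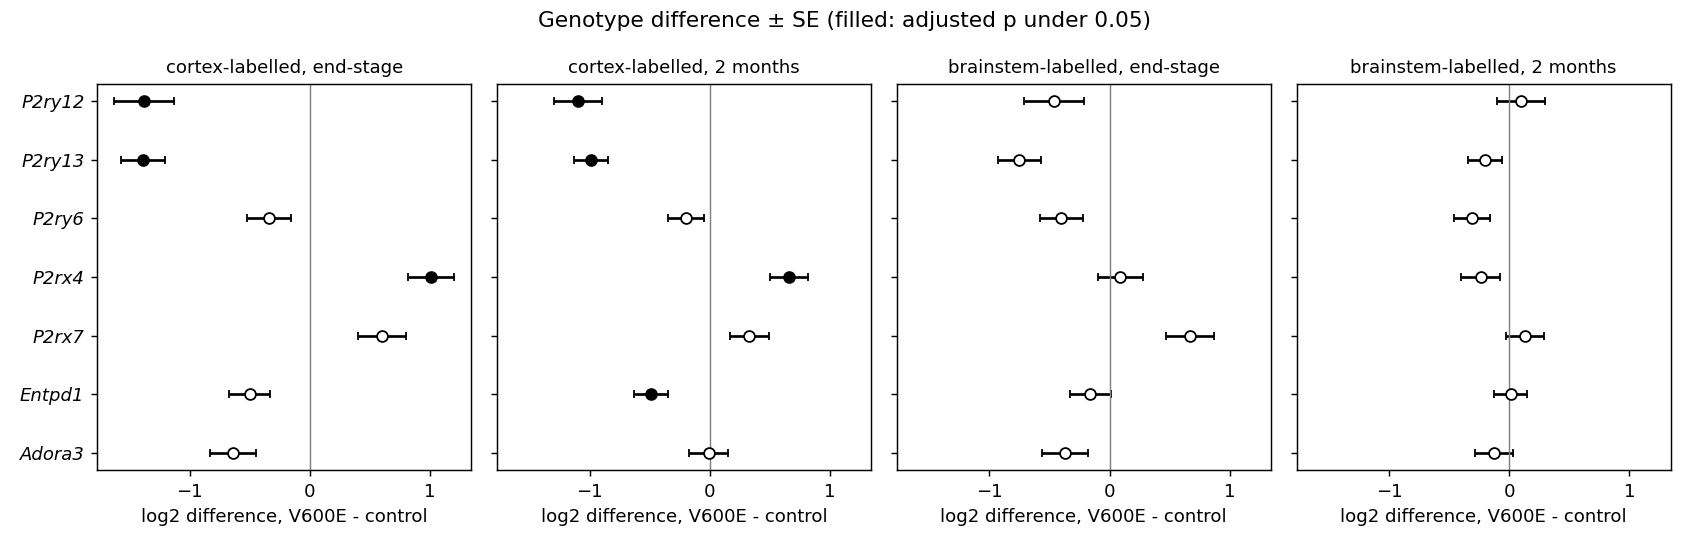
Log2 difference of V600E minus control (horizontal axes) with its standard error for each member (vertical axis), in 4 panels by region label and stage, from the edgeR model; filled points have an adjusted p under 0.05. In cortex-labelled libraries 3 members pass at end-stage and 4 at 2 months, and in brainstem-labelled libraries 0 pass at either stage.

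With genotype taken from the sample record instead, the 2-month cortex-labelled differences turned to the other sign for the 4 called members: P2ry12 0.41, P2ry13 0.24, P2rx4 -0.34 and Entpd1 0.29 on the log2 scale, with an edgeR adjusted p of 1 for each. Then 0 of the 7 members passed, and 0.00603% of all genes did. Under that reading the control group held M2617, M2621 and M2629 and the V600E group M2618, M2624 and M2633, and the groups overlapped for each of these 4 genes. That reading reaches the end-stage libraries only through the shared estimate of spread. There the log2 differences were as above, but the edgeR adjusted p was 0.127 for P2ry12, 0.0732 for P2ry13 and 0.0949 for P2rx4, so that 0 of 7 members passed where 1.03% of all genes did. In brainstem-labelled libraries it called 0 members at either stage, with 0.00603% of all genes called at each. Leaving out the 4 mice whose genotype depends on the reading leaves M2624 and M2629 at 2 months, 1 mouse a group. Their spread is assumed to be that of the end-stage groups. In that fit the end-stage cortex-labelled differences were -1.37 for P2ry12, -1.39 for P2ry13 and 1.02 for P2rx4, of which P2rx4 no longer passed the threshold. The 2-month cortex-labelled differences were then -0.89 for P2ry12 (edgeR adjusted p = 0.645), -1.06 for P2ry13 (0.495), 0.50 for P2rx4 (0.741) and -0.32 for Entpd1 (0.801), and 0 of 7 members and 0.00575% of all genes were called.

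**Figure D3:**
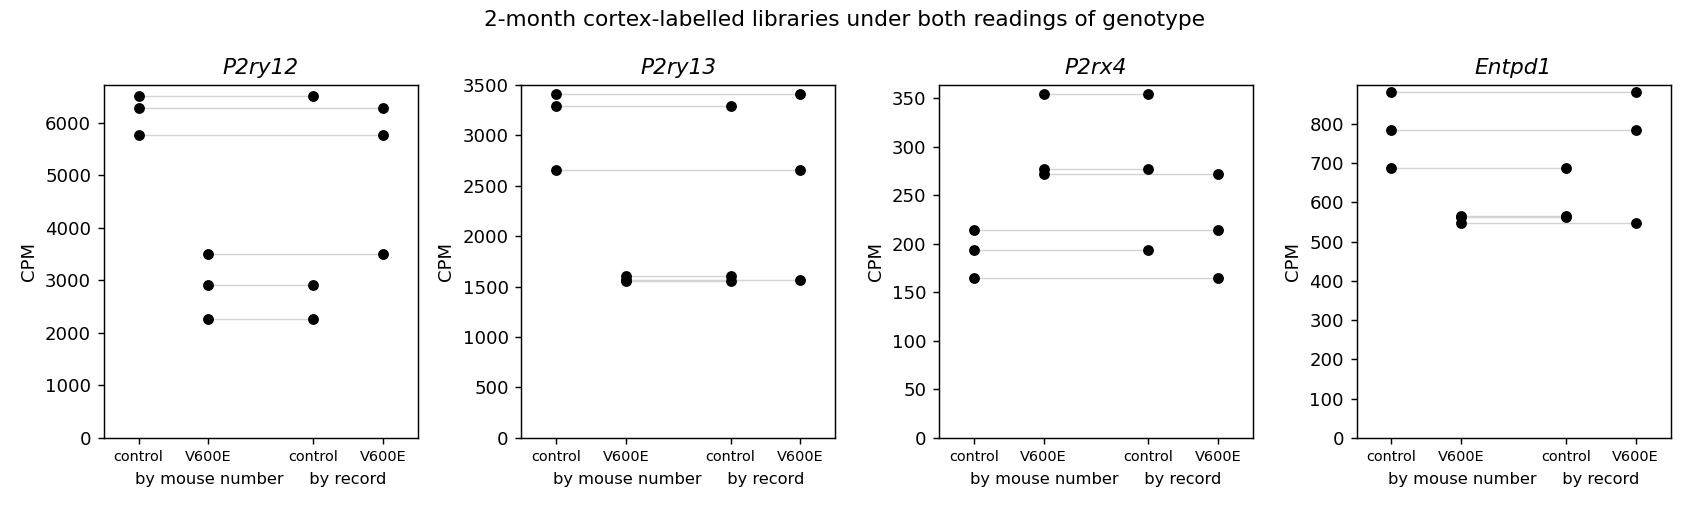
Level in CPM (vertical axes from 0) of the 4 members called at 2 months in the 6 cortex-labelled libraries of that age, grouped by the mouse number in the column name (left pair of columns) and by the sample record (right pair); each grey line joins the same library. By the mouse number the groups do not overlap, and by the record 4 of the 6 mice change group and the groups overlap.

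The same comparison in brainstem-labelled libraries called 0 of the 7 members at end-stage, where 0.151% of all genes passed, and 0 of the 7 at 2 months, where 0.0362% passed. At end-stage P2ry12 was at 8769 and 6498 CPM in the controls and 5404 and 5679 CPM in the V600E mice (log2 difference -0.46 ± 0.25, edgeR adjusted p = 0.541). P2ry13 was at 2527 and 3267 CPM in the controls and 1507 and 1930 CPM in the V600E mice. Its V600E values were both lower, with a log2 difference of -0.75 ± 0.18 that missed the threshold (edgeR adjusted p = 0.0862); DESeq2 gave an adjusted p of 0.00688 and edgeR without the low-count filter 0.0116. It was the 1 member called in either, beside 2.4% of all genes by DESeq2 and 1.72% without the filter. P2rx7 was at 167 and 185 CPM against 269 and 294 CPM and also missed the threshold (0.67 ± 0.20, edgeR adjusted p = 0.185). P2rx4 was at 140 and 158 CPM in the controls and 138 and 180 CPM in the V600E mice, which overlapped (0.09 ± 0.19, edgeR adjusted p = 0.941). P2ry6 (-0.40), Entpd1 (-0.16) and Adora3 (-0.37) had edgeR adjusted p of 0.458 to 0.815.

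At 2 months the brainstem-labelled P2ry12 was at 8370, 7869 and 6231 CPM in the controls and 6885, 8270 and 8958 CPM in the V600E mice. These values overlapped, with a log2 difference of 0.10 ± 0.20 (edgeR adjusted p = 0.919). P2ry13 ranged from 2862 to 4002 CPM in the controls and from 2988 to 3251 CPM in the V600E mice (-0.20 ± 0.14, edgeR adjusted p = 0.739). P2rx4 ranged from 147 to 170 CPM in the controls and from 128 to 141 CPM in the V600E mice (-0.24 ± 0.16, edgeR adjusted p = 0.711), so that its V600E values lay just under the controls. The other members, P2ry6 (-0.31), P2rx7 (0.13), Entpd1 (0.01) and Adora3 (-0.13), had edgeR adjusted p of 0.56 to 0.996.

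Whether the genotype difference itself differed between region labels was tested as an interaction, given as brainstem-labelled minus cortex-labelled. In the model without a term for the mouse, 0 of 7 members passed at end-stage (0.0844% of all genes passed) and 0 of 7 at 2 months (0.0241%). At end-stage the interaction was 0.91 ± 0.35 for P2ry12, 0.64 ± 0.25 for P2ry13 and -0.92 ± 0.27 for P2rx4, with edgeR adjusted p of 0.808, 0.838 and 0.455. At 2 months it was 1.20 ± 0.28 for P2ry12 (edgeR adjusted p = 0.261), 0.79 ± 0.20 for P2ry13 (0.283), -0.89 ± 0.22 for P2rx4 (0.283) and 0.50 ± 0.19 for Entpd1 (0.49). Both libraries of a mouse come from 1 animal, so a fit with the mouse as a block was also made. With that replicate block, 3 of the 7 members passed at 2 months, where 0.723% of all genes did: P2ry12 at 1.22 ± 0.24 (edgeR adjusted p = 0.0389), P2ry13 at 0.80 ± 0.15 (0.0323) and P2rx4 at -0.89 ± 0.16 (0.0286). Entpd1 was at 0.48 with an adjusted p of 0.203 in that fit. At end-stage the block called 0 of 7 members, with 0.38% of all genes called, and P2rx4 came nearest (edgeR adjusted p = 0.0855). limma-voom with the mouse as a random block called 0 of 7 at 2 months, where 0.133% of all genes passed, with adjusted p of 0.0507 for P2ry12, 0.0771 for P2ry13 and 0.0819 for P2rx4 at log2 differences of 1.22, 0.80 and -0.89. DESeq2 without a block called the same 3 members at 2 months (adjusted p 0.0254, 0.0487 and 0.0344), where 0.655% of all genes were called, and edgeR without the low-count filter called P2ry12 and P2ry13, where 1.05% were.

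Within single mice the pattern can be read directly. P2ry12 was 1.24 to 1.87 log2 units higher in the brainstem-labelled than in the cortex-labelled library of the 3 V600E mice at 2 months, against -0.01 to 0.54 in the 3 controls. The 2 ranges did not overlap. At end-stage the V600E mice were at 1.48 and 2.44 and the controls at 0.74 and 1.19. P2ry13 was higher by 0.94 to 1.05 in the V600E mice and 0.11 to 0.28 in the controls at 2 months, so that its region difference was small in controls. P2rx4 went the other way, with the brainstem-labelled library lower in 10 of 10 mice, by -1.33 to -0.99 in V600E and -0.33 to -0.16 in control mice at 2 months and by -1.69 to -1.58 and -0.76 to -0.70 at end-stage. Entpd1 was higher in the brainstem-labelled library in 10 of 10 mice, by 0.41 to 0.81 in V600E and 0.05 to 0.21 in control mice at 2 months. For P2ry6, P2rx7 and Adora3 the ranges of V600E and control mice overlapped at 2 months.

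**Figure D4:**
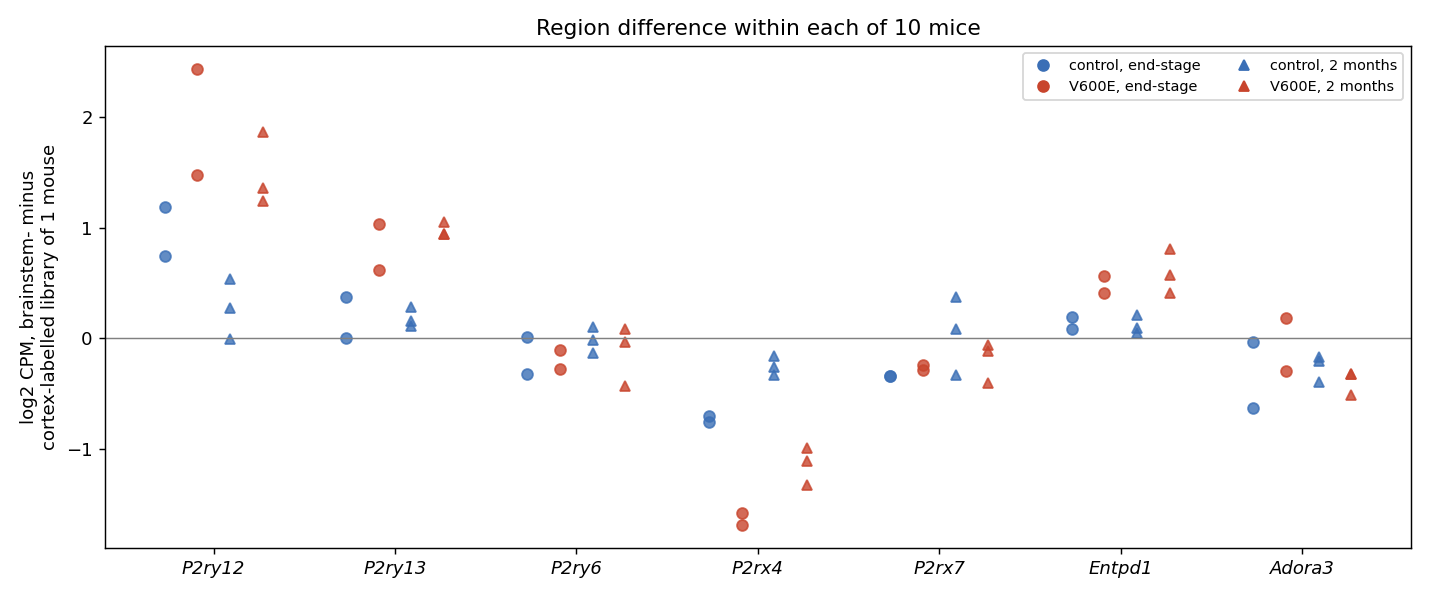
Difference in log2 CPM between the brainstem-labelled and the cortex-labelled library of the same mouse (vertical axis) for each member (horizontal axis); circles are end-stage and triangles 2-month mice, blue control and red V600E. P2rx4 lies under 0 in 10 of 10 mice, P2ry12 and P2ry13 lie above 0 in 9 of 10, and for these 3 genes the V600E mice lie further from 0 than the controls of the same stage.

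In controls alone, 0 of the 7 members passed between region labels at end-stage (0.0542% of all genes) or at 2 months (0.145%). At end-stage the log2 difference of brainstem-labelled minus cortex-labelled control libraries was 0.98 ± 0.25 for P2ry12 and -0.73 ± 0.19 for P2rx4, with edgeR adjusted p of 0.179 and 0.2. With the mouse as a replicate block, P2rx4 passed at end-stage (-0.73 ± 0.14, edgeR adjusted p = 0.0301), 1 of 7 members where 0.669% of all genes passed, and P2ry12 had an adjusted p of 0.0571. limma-voom with the mouse as a random block called 0 of 7 there (0.139% of all genes), with P2rx4 at -0.73 ± 0.17 and an adjusted p of 0.116. DESeq2 called P2ry12 and P2rx4, where 1.82% of all genes were called, and edgeR without the low-count filter called P2ry12 alone, where 1.73% were. The block called 0 of 7 at 2 months, where 1.18% of all genes passed. Between end-stage and 2-month controls, 0 of 7 members passed in cortex-labelled and 0 of 7 in brainstem-labelled libraries, and 0% of all genes did in each. Without the low-count filter P2ry12 alone passed in cortex-labelled libraries (-0.68, end-stage minus 2 months, edgeR adjusted p = 0.0145), where 0.843% of all genes did. The genotype difference did not pass between stages for any member either: 0 of 7 in cortex-labelled libraries (0.265% of all genes), where the interactions ran from -0.63 to 0.36, and 0 of 7 in brainstem-labelled libraries (0.00603%), from -0.56 to 0.55. By the record instead, the cortex-labelled interactions ran from -1.79 ± 0.52 for P2ry12 (edgeR adjusted p = 0.141) and -1.63 ± 0.45 for P2ry13 (0.12) to 1.35 ± 0.35 for P2rx4 (0.101). Again 0 of 7 passed, beside 0.452% of all genes, and 0 of 7 in brainstem-labelled libraries, beside 0.0241%. A miss of the threshold with 2 mice a group does not show that the stages were alike.

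Over the 8 groups P2ry12 was highest in brainstem-labelled 2-month V600E mice (8038 ± 1056 CPM, SD, n = 3), followed by brainstem-labelled controls at end-stage (7634 ± 1606, n = 2) and at 2 months (7490 ± 1119, n = 3), which lie within each other's spread. Cortex-labelled 2-month controls (6182 ± 381, n = 3) and brainstem-labelled end-stage V600E mice (5542 ± 194, n = 2) came next. The 3 lowest groups were cortex-labelled: end-stage controls (3866 ± 33.1, n = 2), 2-month V600E mice (2889 ± 616, n = 3) and end-stage V600E mice (1489 ± 627, n = 2). P2rx4 had nearly the reverse order, from 498 ± 119 CPM (SD, n = 2) in cortex-labelled end-stage V600E mice and 301 ± 45.9 (n = 3) at 2 months down to 135 ± 6.59 (n = 3) in brainstem-labelled 2-month V600E mice. Its 4 brainstem-labelled groups were at means of 135 to 159 CPM, and neighbours in that order lay within their spread. P2ry13 ran from 3557 ± 609 CPM (SD, n = 3) in brainstem-labelled 2-month controls to 963 ± 27.2 (n = 2) in cortex-labelled end-stage V600E mice. Group means were 467 to 728 CPM for P2ry6, 470 to 852 for Entpd1, 176 to 339 for P2rx7 and 102 to 173 for Adora3.

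Markers of other cells moved with genotype too. In cortex-labelled end-stage libraries the sum of the 7 microglia markers was 16401 to 23314 CPM in V600E mice and 24369 to 28593 CPM in controls, and at 2 months the groups overlapped, at 24389 to 25653 and 22086 to 25301 CPM. The sum includes Cx3cr1. Of the end-stage controls, M1375 (28593 CPM) was labelled CX3 WT and M1521 (24369 CPM) CX3 HET, as were both V600E mice. The part of the CX3 genotype in this gap was not tested. In bulk libraries fewer cells of a type and less RNA per cell cannot be told apart. The 8 border-associated macrophage markers, of which each had counts in both end-stage groups, summed to 58.6 to 278 CPM in V600E and 22.8 to 28.1 CPM in control cortex-labelled libraries at end-stage, and to 68.7 to 116 and 2.79 to 32.4 CPM at 2 months, with Lyve1 at 0 in the V600E group. The 8 monocyte markers summed to 141 to 947 against 7.2 to 19.2 CPM at end-stage, with Ly6c2 and Chil3 at 0 in both groups, and to 168 to 213 against 6.94 to 22.7 CPM at 2 months. In brainstem-labelled libraries the monocyte sum was 18.8 to 136 CPM in V600E and 4.71 to 12.7 CPM in control mice at end-stage. In cortex-labelled end-stage libraries the 4 markers of oligodendrocyte precursors summed to 37.3 to 88.1 CPM in V600E and 3.18 to 5.75 CPM in control mice, with Olig2 at 0 in the V600E group, and the 5 astrocyte markers to 6.87 to 31.5 and 4.24 to 5.68 CPM. At 2 months the precursor sums overlapped, the astrocyte sums were 5.41 to 9.35 and 2.71 to 4.43 CPM, and the 7 markers of endothelial cells and pericytes summed to 52.6 to 73.7 and 21.6 to 31.1 CPM. Of these, Rgs5 and Kcnj8 were at 0 in both groups. The part of these cells in the lower P2ry12 and P2ry13 and the higher P2rx4 was not tested. P2ry12 is also the ADP receptor of platelets. The 5 platelet markers summed to 3.9 to 11 CPM in V600E and 58.7 to 62.7 CPM in control cortex-labelled end-stage libraries, with Ppbp and Gp1bb at 0 in both, and to 14.9 to 18.7 and 61.4 to 82 CPM at 2 months. In cortex-labelled 2-month controls Ppbp, Gp1bb and Itga2b were at 0, so that sum came from Gp9 and Treml1 alone. Gp9 was also among the genes most like P2ry13 over the 20 libraries (Pearson's r of log2 CPM 0.95). In brainstem-labelled libraries, where P2ry12 was not called at either stage, the platelet sums were lower in V600E mice too. They were 18 to 28.6 against 55.8 to 94.7 CPM in controls at end-stage and 43.8 to 55.8 against 90.5 to 113 CPM at 2 months. The part of platelets in the P2ry12 levels was not tested. For Adora3, which mast cells also express, mast cell markers were at 0 in 19 of the 20 libraries.

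Other genes of the pathway were read from lists. Of 37 further purinergic receptors, ectoenzymes and nucleoside transporters 23 were tested. In cortex-labelled end-stage libraries 0 were higher and 3 lower in V600E mice, where 1.83% and 2.18% of all genes were. The median log2 difference was -0.01, beside 0.02 for all genes. P2rx1, an ATP-gated channel, was at 2.47 to 3.05 CPM in V600E and 41 to 49.8 CPM in control libraries, a log2 difference of -4.03 ± 0.38 (edgeR adjusted p = 2.42e-05). This was larger in size than the difference of any member. Gpr34, a lysophosphatidylserine receptor of the P2Y12-like group, was at 655 to 1168 against 2042 to 2178 CPM (-1.21, edgeR adjusted p = 0.00459). Pnp, purine nucleoside phosphorylase, was at 76.6 to 91.9 against 147 to 165 CPM (-0.88, edgeR adjusted p = 0.044). Pnp has a near-identical copy, Pnp2, with which it can share reads, so its count is uncertain.

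P2rx1 was also lower in brainstem-labelled end-stage V600E libraries, at 10.7 to 10.9 against 29.3 to 61.3 CPM (-2.06, edgeR adjusted p = 0.0202). It was the 1 gene of the 23 called there, where 0.151% of all genes were. The median was 0.14, beside -0.02 for all genes. At 2 months in cortex-labelled libraries Gpr34 was again lower, at 816 to 1231 against 2558 to 2915 CPM (-1.41, edgeR adjusted p = 0.000522). P2ry14, the receptor for UDP-sugars, was higher there, at 9.38 to 15.8 CPM in V600E mice against 0 to 0.301 CPM in controls (edgeR adjusted p = 0.0065). Thus 1 of the 23 was higher and 1 lower, where 3.64% and 1.81% of all genes were. The median of the 23 was 0.34, beside -0.01 for all genes. P2rx1 was the 1 gene of the list whose cortex-labelled genotype difference passed between stages (-3.50, edgeR adjusted p = 0.00215), where 0.265% of all genes did. In brainstem-labelled libraries at 2 months 0 of the 23 passed, where 0.0362% of all genes did.

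Of 16 genes of P2Y12 and Gi signalling, all 16 tested, 3 were lower in cortex-labelled end-stage V600E libraries and 0 higher. Of all genes, 2.18% were lower and 1.83% higher there. The median was -0.31, beside 0.02 for all genes, with 15 of 16 log2 differences under 0. The 3 lower genes were the regulators of G protein signalling Rgs2 (292 to 356 against 629 to 656 CPM, -0.99, edgeR adjusted p = 0.00451) and Rgs10 (311 to 315 against 614 to 729 CPM, -1.10, 0.005) and the G protein subunit Gng2 (28.8 to 38.4 against 64.9 to 65.1 CPM, -0.95, 0.0192). Rgs proteins speed the shut-off of G proteins, so the lower genes are not all activators of the pathway. At 2 months in cortex-labelled libraries Rgs2 alone passed (-0.77, edgeR adjusted p = 0.00453), where 5.45% of all genes did. The median was -0.03, beside -0.01 for all genes. In brainstem-labelled libraries 0 of 16 passed at either stage, where 0.151% of all genes did at end-stage and 0.0362% at 2 months.

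Of 11 genes around P2X7 and the inflammasome, Il1b, the cytokine released on inflammasome activation, was higher and Txnip and Il18 were lower in cortex-labelled end-stage V600E libraries. Of all genes, 1.83% were higher and 2.18% lower there. Il1b was at 74.1 to 91.4 against 6.67 to 10.9 CPM (3.23 ± 0.69, edgeR adjusted p = 0.0122) and at 2 months at 43.4 to 61.4 against 2.08 to 3.7 CPM (3.99 ± 0.59, edgeR adjusted p = 0.00111). Txnip, a redox regulator that binds NLRP3, was lower at both stages (-0.78 and -0.60, edgeR adjusted p = 0.0371 at each). Il18, the other cytokine matured by the inflammasome, was lower at end-stage (-1.15, edgeR adjusted p = 0.0476). The medians were -0.07 at end-stage and -0.01 at 2 months, beside 0.02 and -0.01 for all genes. At 2 months 3.64% of all genes were higher and 1.81% lower. In brainstem-labelled libraries 0 of 11 passed at either stage, where 0.151% (end-stage) and 0.0362% (2 months) of all genes did. P2rx7 itself did not pass in these comparisons.

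Likeness over the 20 libraries, as Pearson's r of log2 CPM with 8283 genes searched, is given as a description, since the libraries share mice, groups and depth. The genes closest to P2ry12 were Bank1 (r = 0.96), Cd164 (0.95) and Mgll (0.93), and those closest to P2ry13 were Gp9, Msrb2 and Sgce (0.95 each). P2rx4 ran closest to Tlr2 (0.96), Slc11a1 (0.95) and Cxcl16 (0.93). P2rx7 ran closest to Dgkz (0.92), App (0.90) and Pnpla7 (0.89), and Entpd1 to Rnase4 (0.92), Ecscr (0.91) and Cd164 (0.90). The closest genes to P2ry6 were Ube2j2 (0.85), Orai1 (0.85) and Aup1 (0.84), and to Adora3 F11r (0.88), Mtg2 (0.84) and B4galt3 (0.83). Among the members, P2ry12 and P2rx4 ran opposite to each other (r = -0.94). P2ry12 ran with P2ry13 (0.87) and Entpd1 (0.87), and P2ry6 ran with Adora3 (0.81) but not with P2ry12 (0.12).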

How the data were processed

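The deposited table holds raw whole-number counts for each gene and library, which the authors had not normalized. FastQC, Subread, edgeR and the build mm10 were named, without versions or roles, per the submitters' processing notes. Annotation, strand use and the handling of reads with several mapping positions are not given in the sources used here. RNA was amplified with SMART-Seq v4, per the labels' protocols, without molecular identifiers, so floors cover counting error only. Identifiers were matched to GENCODE M21 (55394 of 55487). The test was edgeR 4.0.16 (R 4.3.3) on these counts: filterByExpr, TMM factors, 1 quasi-likelihood model over 8 groups and 20 libraries, 12 comparisons, Benjamini-Hochberg adjustment over 16595 genes, threshold 0.05. CPM used TMM-scaled totals, and log2 CPM a prior count of 2. Alternatives were RLE factors, DESeq2 1.42.0, limma-voom (limma 3.58.1) with and without a random block on mouse, no low-count filter, only the compared groups, a fixed block on mouse, genotype from the record, and each mouse left out. Scripts were tested on simulated data.

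The block pairs the 2 libraries of 1 animal, per the labels. Their deviations from group means correlated at 0.101 to 0.265 in the 10 mice. The 7 members, the gene lists and the markers were chosen with earlier results of these data known. A gene of the microglia list and a gene of the hindbrain list are not reported here and were left out of the sums. Named genes were the members, list genes that passed (at most 6 per list and comparison) and the 3 genes most like each member by Pearson's r among genes whose mean log2 CPM reached 3, leaving out predicted genes, Riken clones and pseudogenes.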

Additional observations from a re-analysis of the deposited data

Results flagged for a closer look

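For 3 of the 7 members the genotype difference differed between region labels at 2 months, by a test of the difference itself, in the fit with the mouse as a replicate block. Of all genes, 0.723% passed in that fit. The interaction, brainstem-labelled minus cortex-labelled, was 1.22 for P2ry12, 0.80 for P2ry13 and -0.89 for P2rx4 on the log2 scale. Without the block the same test passed for 0 of the 7, where 0.0241% of all genes passed. With the mouse as a random block in limma-voom it also passed for 0 of the 7 (0.133% of all genes), at adjusted p of 0.0507, 0.0771 and 0.0819. DESeq2 without a block called the same 3 members, where 0.655% of all genes were called. EdgeR without the low-count filter called P2ry12 and P2ry13, where 1.05% were. Each value rests on genotype by the mouse number.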

How the results depend on the processing

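RLE factors and limma-voom, with or without a random block on mouse, left 46 of 46 single-member results on the same side of the threshold and with the same direction. DESeq2 changed 8 of 46, all to called, and the number of members called became 5 in cortex-labelled end-stage genotype (7.91% of all genes), 1 in brainstem-labelled end-stage genotype (2.4%), 3 in genotype by region at 2 months (0.655%) and 2 in end-stage control regions (1.82%). Without the low-count filter it became 2 in genotype by region at 2 months (1.05%) and 1 each in brainstem-labelled end-stage genotype (1.72%), end-stage control regions (1.73%) and cortex-labelled control stages (0.843%). With the compared groups alone it became 1 at end-stage (3.25%) and 2 at 2 months (6.22%) in cortex-labelled genotype. The fixed replicate block compares libraries within a mouse and was fitted only to the comparisons that involve region. It gave 3 in genotype by region at 2 months (0.723%) and 1 in end-stage control regions (0.669%). In genotype by region at end-stage (0.38%) and control regions at 2 months (1.18%) it gave 0. Genotype from the record gave 0 in cortex-labelled genotype at either stage, and leaving out the 4 mice that depend on the reading, chosen after seeing the data, gave 0 at 2 months. Leaving out 1 mouse gave 1 to 3 at end-stage (0.997% to 1.93%) and 2 to 4 at 2 months (2.8% to 4.12%) in cortex-labelled genotype. Counts of calls in the remaining comparisons were unchanged or within 1.5 times where not given here. The cause of these changes was not tested.

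By the record, signs turned at 2 months in cortex-labelled libraries for P2ry12 (0.41), P2ry13 (0.24), P2ry6 (0.04), P2rx4 (-0.34) and Entpd1 (0.29). In brainstem-labelled libraries they turned for P2ry6 (0.21), P2rx4 (0.08), P2rx7 (-0.17), Entpd1 (-0.08) and Adora3 (0.15). In genotype by region they turned for P2ry12 (-0.38), P2ry13 (-0.26), P2ry6 (0.17), P2rx4 (0.42), Entpd1 (-0.37) and Adora3 (0.17). Without the 4 mice, signs turned for brainstem-labelled P2rx7 (-0.07), Entpd1 (-0.13) and Adora3 (0.02) and, by region, P2ry6 (0.08) and Adora3 (0.07). Of the genotype and genotype-by-region values, leaving out 1 mouse turned these, all uncalled: brainstem-labelled P2rx4 at end-stage (-0.10 to 0.26), cortex-labelled Adora3 at 2 months (-0.11 to 0.05), brainstem-labelled Entpd1 (-0.11 to 0.11) and P2ry12 (-0.02 to 0.20) at 2 months, and genotype by region for Adora3 (-0.01 to 0.59) and P2ry6 (-0.20 to 0.12) at end-stage and P2ry6 (-0.21 to 0.04) at 2 months. In genotype by stage it turned cortex-labelled P2ry12 (-0.78 to 0.10, positive without M1524) and Entpd1 (-0.17 to 0.14) and brainstem-labelled P2ry6 (-0.23 to 0.08).

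With 2 or 3 mice a group, small differences were not detectable. The members had at least 1567 counts in each library, so counting error is small beside the level of each member.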
